A study of Arabidopsis thaliana with 12 samples.

Results

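Independent lines of Arabidopsis thaliana that overexpress DPB2 were compared with each other: the 3 libraries labelled DPB2oe12.1.5 were set against the 3 labelled DPB2oe1.11.5, which makes 6 of the 12 libraries of the series. Messenger RNA was sequenced from whole seedlings at Boyes stage 1.02 that had no treatment and grew in 16 h of light at 20 °C and 65% humidity, on MS medium of 0.5 strength. Both lines and the untransformed controls are of the Col-0 ecotype, and 3 Col-0 libraries are given as a level to read the lines against. The 3 libraries of the mutant abo4-1 entered the fits. There they bear on the filter, the scaling, the estimate of the spread and the covariate fit described below. Their counts are given only for the called pseudogenes. The titles of DPB2oe1.11.5 end in another digit than its genotype labels, and the genotype labels were followed. The labels name neither the promoter of the transgene nor its number of insertions, the hour of harvest or whether replicates were grown apart, so p-values measure the spread between these libraries. Counted reads ran from 12205407 to 14067962 in DPB2oe12.1.5 libraries and from 14247786 to 19595776 in DPB2oe1.11.5 libraries.

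DPB2 is the regulatory B subunit of DNA polymerase epsilon, the enzyme that copies the leading strand at the replication fork. POL2A is its main catalytic subunit in Arabidopsis, and DPB3-1 and DPB4 are small subunits with a histone fold. Independent lines that carry one transgene are commonly set side by side to see which transcript changes they share and which belong to a single line.

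DPB2 itself stood at close levels in both lines. DPB2 (AT5G22110, chromosome 5, 7330825 to 7334282 in TAIR10.1) had 117, 110 and 117 CPM in DPB2oe12.1.5 libraries and 118, 106 and 117 CPM in DPB2oe1.11.5 libraries, against 2.79, 1.76 and 4.14 CPM in Col-0. CPM are counts per 1000000 after scaling of library sizes by TMM. The libraries of the lines overlapped, and all of them lay far above those of Col-0. The log2 fold change, which is DPB2oe12.1.5 minus DPB2oe1.11.5 here and below and carries its SE, was 0.02 ± 0.19, adjusted p = 0.972 (edgeR quasi-likelihood test), with a 95% interval of -0.40 to 0.43. POL2A had 26.4, 20.12 and 16.5 CPM in DPB2oe12.1.5 libraries and 33.4, 24.3 and 30.7 CPM in DPB2oe1.11.5 libraries, against 17.36, 16.2 and 15.73 CPM in Col-0. Its log2 fold change was not called (-0.49 ± 0.17, adjusted p = 0.175; interval -0.86 to -0.12), and the lines overlapped. Neither DPB3-1 (0.38 ± 0.21, adjusted p = 0.36) nor DPB4 (-0.30 ± 0.22, adjusted p = 0.482) was called. POL2B, the second catalytic gene, was not tested, with 9 counts in all DPB2oe12.1.5 libraries and 4 in all DPB2oe1.11.5 libraries.

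The libraries of each line were not alike in their time-of-day transcripts. LHY and CCA1 are MYB factors of the circadian clock that peak around dawn, while PRR5 and TOC1 are pseudo-response regulators that peak later in the day and repress them. LHY had 202, 197 and 40.02 CPM in DPB2oe12.1.5 libraries and 6.61, 217 and 8.97 CPM in DPB2oe1.11.5 libraries, against 48.1, 7.44 and 7.23 CPM in Col-0. PRR5 had 0.72, 1.495 and 8.50 CPM in DPB2oe12.1.5 libraries and 34.7, 2.87 and 36.3 CPM in DPB2oe1.11.5 libraries, against 4.13, 35.9 and 33.3 CPM in Col-0. Replicate 2 of DPB2oe1.11.5 lay with replicates 1 and 2 of DPB2oe12.1.5 in both genes, and replicate 3 of DPB2oe12.1.5 lay between the extremes. CCA1 had 147, 170 and 63.3 CPM in DPB2oe12.1.5 libraries and 18.1, 159 and 20.8 CPM in DPB2oe1.11.5 libraries, against 54.7, 25.7 and 28.0 CPM in Col-0. TOC1 had 11.98, 10.13 and 15.8 CPM in DPB2oe12.1.5 libraries and 36.1, 10.06 and 35.6 CPM in DPB2oe1.11.5 libraries, against 10.8, 24.6 and 29.2 CPM in Col-0. The lines overlapped in LHY, CCA1, PRR5 and TOC1, and none of these was called (adjusted p of 0.789, 0.644, 0.374 and 0.387).

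A clock score was formed as the mean log2(CPM + 1) of LHY and CCA1 minus that of PRR5 and TOC1. It was 5.19, 5.13 and 2.02 in DPB2oe12.1.5 libraries and -1.59, 4.83 and -1.32 in DPB2oe1.11.5 libraries, against 2.75, -1.03 and -1.06 in Col-0 (exact two-sided permutation test between the lines, p = 0.2, where 3 libraries against 3 cannot go below 0.1). The first principal component over all tested loci held 49.4% of the variance of the 6 libraries and placed replicates 1 and 3 of DPB2oe1.11.5 at -45.8 and -39.8, away from replicate 2 at 16.8. The second component set replicate 3 of DPB2oe12.1.5 alone at 50, against -23.9 to -5.6 for the other libraries. Gene lists below are given without and with the clock score as a covariate, and called means called by edgeR unless DESeq2 is named. Line and score cannot be told apart fully, since the score's line means differ.

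**Figure D1:**
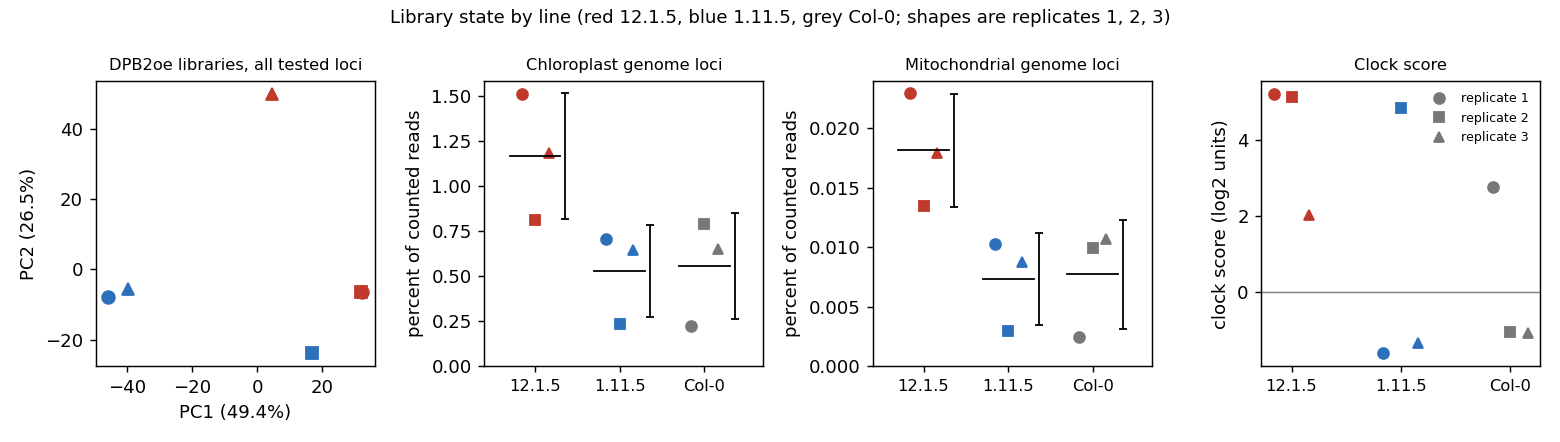
Position of the 6 DPB2oe libraries on the first 2 principal components, the percent of counted reads in chloroplast and in mitochondrial genome loci, and the clock score (log2 units) by library. In the chloroplast and mitochondrial panels lines are means and error bars SD of 3 libraries. The grey line in the clock score panel is a baseline and not a mean. Replicate 3 of DPB2oe12.1.5 stands alone on the second component, and replicate 2 of DPB2oe1.11.5 has a clock score of 4.83 against -1.59 and -1.32 in the rest of its line.

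The promoters of PRR5 and TOC1 are shown because these genes separate replicate 2 of DPB2oe1.11.5 from the rest of its line. The 250 bases before each RefSeq start (TAIR10.1) are printed 5′ to 3′ on the gene's strand, with matches to the evening element AAAATATCT on either strand in capitals. CCA1 and LHY are known to bind this motif, and 2.22% of all 32819 such windows hold it. The PRR5 window is chr5:8358547-8358796 on the minus strand, and the TOC1 window is chr5:24674713-24674962 on the plus strand. Each held 1 match, at -187 in PRR5 and -151 in TOC1, counted from the start; a match describes letters only.
PRR5: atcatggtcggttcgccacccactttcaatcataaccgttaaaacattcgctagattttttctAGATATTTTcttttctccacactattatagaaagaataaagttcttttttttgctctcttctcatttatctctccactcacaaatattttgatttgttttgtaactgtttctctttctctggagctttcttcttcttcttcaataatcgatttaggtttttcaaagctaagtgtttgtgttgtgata
TOC1: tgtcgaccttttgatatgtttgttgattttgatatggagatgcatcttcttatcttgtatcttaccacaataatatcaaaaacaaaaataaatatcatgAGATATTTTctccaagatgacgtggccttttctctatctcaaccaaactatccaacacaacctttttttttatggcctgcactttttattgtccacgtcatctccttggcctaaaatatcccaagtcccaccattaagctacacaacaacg

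**Figure D2:**
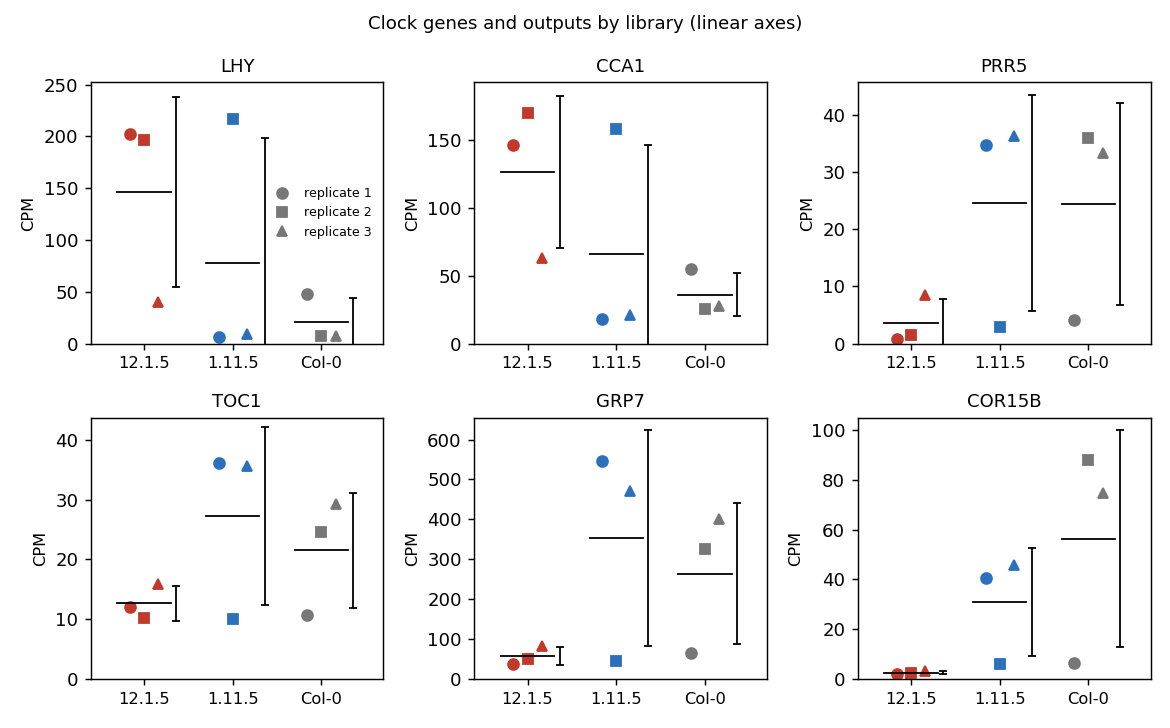
CPM of the dawn genes LHY and CCA1, the later genes PRR5 and TOC1, and the outputs GRP7 and COR15B in each library on linear axes; lines are means and error bars SD of 3 libraries. In all 6 genes replicate 2 of DPB2oe1.11.5 lies closer to replicates 1 and 2 of DPB2oe12.1.5 than to the rest of its own line.

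Of the wider morning and evening clock lists edgeR called 0 members and DESeq2 called 1, the evening gene PRR3. Of 18 morning genes 16 had a log2 fold change above 0 (median 0.59), and of 14 evening genes 3 did (median -1.10), where 51.2% of all 19924 tested loci lay above 0 with a median of 0.01. GRP7, an RNA-binding protein under clock control, had 38.7, 49.2 and 81.9 CPM in DPB2oe12.1.5 libraries and 547, 44.9 and 471 CPM in DPB2oe1.11.5 libraries, against 65.2, 325 and 401 CPM in Col-0. Replicate 2 of DPB2oe1.11.5 thus fell within the range of DPB2oe12.1.5. PRR3, a relative of TOC1, had 0.56, 0.41 and 0.31 CPM in DPB2oe12.1.5 libraries and 3.63, 0.96 and 5.19 CPM in DPB2oe1.11.5 libraries, without overlap, and was not called by edgeR (-2.90 ± 0.99, adjusted p = 0.177). PRR7, a repressor of CCA1 and LHY (-0.97 ± 0.40, adjusted p = 0.241), and CDF3, a DOF repressor of flowering (0.72 ± 0.32, adjusted p = 0.268), had the lowest unadjusted p of the morning list, and the lines overlapped in both. With the clock score as a covariate the list medians were 0.05 for morning genes and 0.01 for evening genes; the score was built from 4 of these genes.

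At an adjusted p under 0.05 the lines differed at 6 of 19924 loci (0.0301%), of which 3 were higher (0.0151%) and 3 lower (0.0151%) in DPB2oe12.1.5. All 6 were called again with the clock score as a covariate, where 130 loci (0.652%) were called, 104 higher (0.522%) and 26 lower (0.13%). An unadjusted p under 0.05 was reached by 3575 loci (17.9%), 1861 of them higher (9.34%) and 1714 lower (8.6%). The libraries of the lines did not overlap at 2198 loci that were higher (11.0%) and 2021 that were lower (10.1%) in DPB2oe12.1.5, nor at any of the 6 called loci. DESeq2 called 670 loci, 421 higher (2.11%) and 249 lower (1.25%). Without replicate 2 of DPB2oe1.11.5 edgeR called 1119 loci, 3.19% of loci being higher and 2.34% lower; the 6 libraries of the lines fitted alone gave 1 call.

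TGG2, a myrosinase that cleaves glucosinolates when leaf tissue is damaged, was the most abundant called gene and fell in DPB2oe12.1.5. TGG2 (AT5G25980) had 143, 165 and 122 CPM in DPB2oe12.1.5 libraries and 368, 372 and 389 CPM in DPB2oe1.11.5 libraries, against 508, 464 and 434 CPM in Col-0. The groups did not overlap, and DPB2oe12.1.5 was the lowest of them. The log2 fold change was -1.39 ± 0.14, adjusted p = 0.00178, and with the clock score it was -1.44 ± 0.14, adjusted p = 0.000467. TGG1, the other leaf myrosinase, had 731, 838 and 856 CPM in DPB2oe12.1.5 libraries and 1269, 1156 and 1300 CPM in DPB2oe1.11.5 libraries, against 1293, 1505 and 1385 CPM in Col-0, with the lines apart but not called (-0.62 ± 0.13, adjusted p = 0.0818). MAM1, an enzyme of methionine chain elongation in glucosinolate synthesis, was not called either (-0.66 ± 0.20, adjusted p = 0.141). Of 12 tested genes of the glucosinolate pathway 8 lay below 0, and TGG2 was the 1 member called, with and without the clock score. DESeq2 called 2 lower, where it called 1.25% of all loci lower. The summed level of the list was 1948, 2041 and 1910 CPM in DPB2oe12.1.5 libraries and 2739, 2743 and 2764 CPM in DPB2oe1.11.5 libraries, against 2923, 3557 and 3299 CPM in Col-0. TGG1 and TGG2 make up a large part of that sum, and the median log2 fold change of the list was -0.16.

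The 250 bases before TGG2 (chromosome 5, gene at 9072708 to 9075777, plus strand, window chr5:9072458-9072707) are shown as those of the called protein-coding gene with the lowest adjusted p. The window held no evening element, no G-box (CACGTG, known to be bound by bZIP and bHLH factors, in 5.83% of windows) and no RY core (CATGCA, known from seed genes, in 8.83% of windows) on either strand.
TGG2: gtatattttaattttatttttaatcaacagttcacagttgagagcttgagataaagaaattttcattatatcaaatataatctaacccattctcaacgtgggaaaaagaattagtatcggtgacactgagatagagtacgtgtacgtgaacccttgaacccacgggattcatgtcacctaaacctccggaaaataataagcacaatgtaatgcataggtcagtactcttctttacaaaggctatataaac

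The other lower calls were pseudogene transcripts that were present in DPB2oe1.11.5 and near 0 elsewhere. AT5G33251, a transcribed pseudogene (chromosome 5, 12499072 to 12500433, plus strand), had 0.88, 0.068 and 0 CPM in DPB2oe12.1.5 libraries and 26.6, 39.7 and 32.9 CPM in DPB2oe1.11.5 libraries, against 0.11, 0 and 0 CPM in Col-0. These were 12 counts in all DPB2oe12.1.5 libraries and 1895 in all DPB2oe1.11.5 libraries, against 3 in Col-0 and 3 in abo4-1. All 3 DPB2oe1.11.5 libraries were high, and the log2 fold change was -6.73 ± 0.64, adjusted p = 0.00248. All 20 neighbouring loci looked at had at most 10 counts in each line, the highest having 6.

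AT2G05040, a pseudogene (chromosome 2, 1783119 to 1786463, plus strand), had 0.080, 0.34 and 0.078 CPM in DPB2oe12.1.5 libraries and 5.82, 7.04 and 4.82 CPM in DPB2oe1.11.5 libraries, against 0.11, 0.20 and 0.43 CPM in Col-0. The counts were 7 in all DPB2oe12.1.5 libraries and 342 in all DPB2oe1.11.5 libraries, against 13 in Col-0 and 10 in abo4-1. The log2 fold change was -5.03 ± 0.51, adjusted p = 0.00178. The adjoining pseudogene AT2G05030 (1781886 to 1782503), named after its values were seen, had 1, 1 and 0 counts in DPB2oe12.1.5 libraries and 35, 23 and 15 counts in DPB2oe1.11.5 libraries, against 0 in Col-0, and was not called (-4.46 ± 0.76, adjusted p = 0.0607). Of 19 loci around AT2G05040, 16 had at most 10 counts in each line. Reads with several hits had been removed before deposit, so transcripts of repeated sequence may be counted in part.

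The windows before both called pseudogenes (chr5:12498822-12499071 and chr2:1782869-1783118, plus strand) are shown because their transcripts were near 0 in every other group. Neither held the evening element, the G-box or the RY core.
AT5G33251: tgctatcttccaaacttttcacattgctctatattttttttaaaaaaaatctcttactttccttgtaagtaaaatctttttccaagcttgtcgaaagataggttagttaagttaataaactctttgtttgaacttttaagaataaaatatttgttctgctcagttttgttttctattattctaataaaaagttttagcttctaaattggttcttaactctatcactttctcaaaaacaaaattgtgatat
AT2G05040: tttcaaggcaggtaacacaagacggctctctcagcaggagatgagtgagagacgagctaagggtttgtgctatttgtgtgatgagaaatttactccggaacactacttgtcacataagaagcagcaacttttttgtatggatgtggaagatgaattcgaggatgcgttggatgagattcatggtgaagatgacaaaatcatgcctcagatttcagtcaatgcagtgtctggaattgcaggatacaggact

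CYP78A8, the peroxidase gene AT1G30870 and EM6 were higher in DPB2oe12.1.5 than in DPB2oe1.11.5. Of these, EM6 stood apart from Col-0 in DPB2oe12.1.5, and CYP78A8 and AT1G30870 lay below Col-0 in DPB2oe1.11.5. CYP78A8 (AT1G01190, chromosome 1, 82984 to 84946), a cytochrome P450 of the family of the growth regulator KLUH, had 5.47, 3.60 and 7.33 CPM in DPB2oe12.1.5 libraries and 1.04, 1.15 and 0.87 CPM in DPB2oe1.11.5 libraries, against 4.89, 4.89 and 4.04 CPM in Col-0. Its log2 fold change was 2.40 ± 0.28, adjusted p = 0.00583. AT1G30870 (chromosome 1, 10991478 to 10993083), a class III peroxidase, had 9.81, 10.7 and 13.1 CPM in DPB2oe12.1.5 libraries and 3.33, 4.26 and 3.46 CPM in DPB2oe1.11.5 libraries, against 8.23, 9.98 and 10.5 CPM in Col-0. Its log2 fold change was 1.60 ± 0.21, adjusted p = 0.0114. In both genes the DPB2oe12.1.5 libraries overlapped those of Col-0, and the DPB2oe1.11.5 libraries lay below both. Neither gene was called without replicate 1 or without replicate 3 of DPB2oe1.11.5.

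EM6 (AT2G40170), a late embryogenesis abundant protein of the maturing seed, had 3.38, 3.74 and 1.87 CPM in DPB2oe12.1.5 libraries and 0.35, 0.34 and 0.43 CPM in DPB2oe1.11.5 libraries, against 0.51, 0.59 and 0.43 CPM in Col-0. All DPB2oe12.1.5 libraries lay above both other groups, with replicate 3 the lowest of them. The log2 fold change was 2.996 ± 0.39, adjusted p = 0.0114. EM6 was not called without replicate 1 of DPB2oe12.1.5, nor without replicate 1 or replicate 3 of DPB2oe1.11.5. The window before EM6 (chr2:16780369-16780618, minus strand, gene at 16779552 to 16780368) is shown because EM6 is a known target of bZIP factors; it held 1 G-box, in capitals, at -39.
EM6: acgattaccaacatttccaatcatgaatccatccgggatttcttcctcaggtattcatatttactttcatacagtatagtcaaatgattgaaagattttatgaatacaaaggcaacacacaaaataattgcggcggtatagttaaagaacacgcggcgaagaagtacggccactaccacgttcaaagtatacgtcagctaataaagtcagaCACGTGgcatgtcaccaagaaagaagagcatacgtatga

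**Figure D3:**
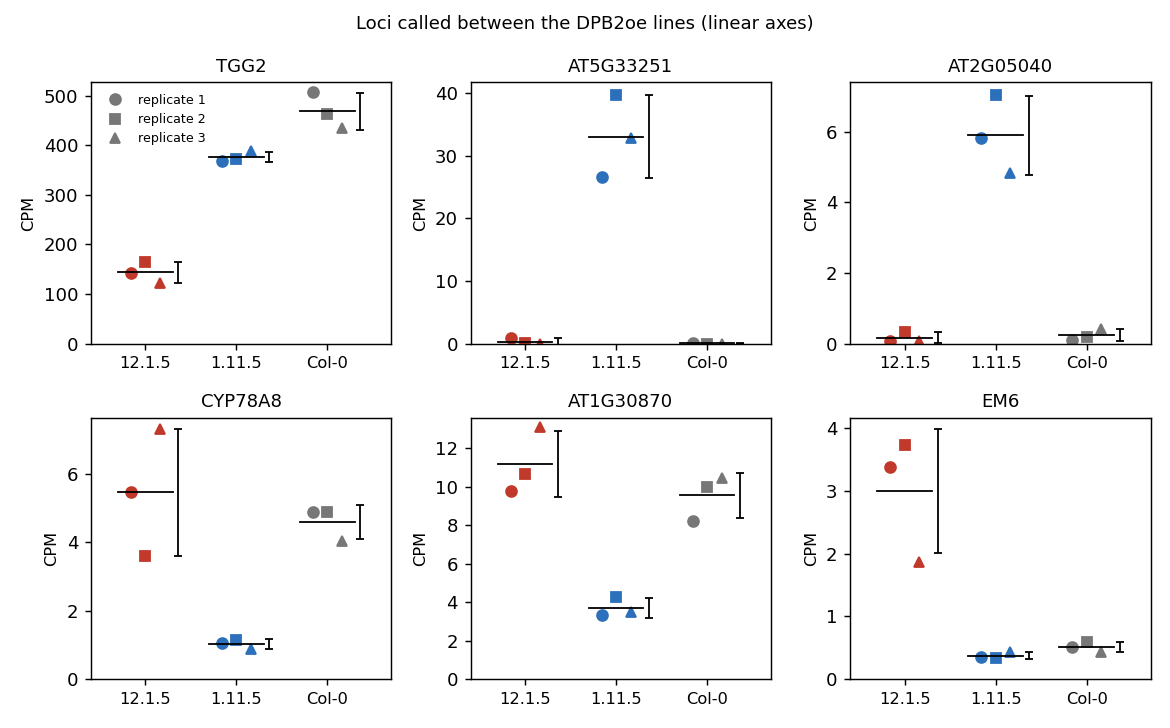
CPM of the 6 loci called between the lines by library on linear axes; lines are means and error bars SD of 3 libraries. TGG2 is lowest in DPB2oe12.1.5, AT5G33251 and AT2G05040 are high in DPB2oe1.11.5, CYP78A8 and AT1G30870 are low in DPB2oe1.11.5, and EM6 is high in DPB2oe12.1.5.

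The storage genes PAP85, OLEO1 and SESA3 were highest in replicates 1 and 2 of DPB2oe12.1.5. Of 24 genes on the list 14 passed the filter on low counts, which a gene can pass through the line where it is high, and EM6 was the 1 member called (2 with DESeq2). Of the 14, 13 lay above 0 (median 1.60). PAP85, a vicilin-type storage protein, had 3.54, 4.28 and 1.25 CPM in DPB2oe12.1.5 libraries and 0.45, 0.72 and 0.19 CPM in DPB2oe1.11.5 libraries, against 0.25, 0.10 and 0.43 CPM in Col-0. PAP85 missed the threshold (2.69 ± 0.56, adjusted p = 0.0818). OLEO1, a protein of oil bodies, had 5.47, 4.89 and 0.078 CPM in DPB2oe12.1.5 libraries and 0, 0.43 and 0.12 CPM in DPB2oe1.11.5 libraries, against 0.18, 0.10 and 0.27 CPM in Col-0, so that replicate 3 of DPB2oe12.1.5 lay with the other groups. SESA3, a storage albumin, had 57, 54 and 0 counts in DPB2oe12.1.5 libraries and 0, 2 and 0 counts in DPB2oe1.11.5 libraries. Replicates 1 and 2 of DPB2oe12.1.5 also had the highest clock scores of the lines, with replicate 2 of DPB2oe1.11.5 next. The summed level of the list was 95.3, 108 and 63.7 CPM in DPB2oe12.1.5 libraries. It was 33.0, 45.2 and 41.2 CPM in DPB2oe1.11.5 libraries, against 53.8, 52.8 and 54.6 CPM in Col-0. In that sum replicate 2 of DPB2oe1.11.5 thus lay with its own line. With the score as a covariate EM6 was called (2.86 ± 0.48, adjusted p = 0.0192) and the list's median was 1.01. Without the 4 libraries of highest LHY, which leaves replicate 3 alone in DPB2oe12.1.5, EM6 was not called (log2 fold change 2.24), 9 of 13 tested members lay above 0 and the median was 0.42. In whole seedlings, fewer cells of a type and less RNA per cell cannot be told apart.

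Genes of root hairs and of the root's barrier layers had higher values in DPB2oe12.1.5 than in DPB2oe1.11.5, with Col-0 mostly near DPB2oe12.1.5. Root hairs are outgrowths of epidermal cells that take up water and nutrients. All 7 root hair genes lay above 0 (median 1.34), and 5 had an unadjusted p under 0.05. Of the 7, edgeR called 0 and DESeq2 called 5 higher. Over all tested loci 9.34% reached that unadjusted p with higher values, and DESeq2 called 2.11% higher. With the clock score 0.522% of all loci were called higher. EXPA7, an expansin of root hair cells, had 3.22, 1.70 and 5.15 CPM in DPB2oe12.1.5 libraries and 0.94, 0.72 and 0.80 CPM in DPB2oe1.11.5 libraries, against 2.50, 4.11 and 3.08 CPM in Col-0. It was not called (2.01 ± 0.39, adjusted p = 0.0722), although the lines did not overlap. With the clock score 3 of the 7 were called higher: EXPA7 (2.203 ± 0.42, adjusted p = 0.0298), the wall protein LRX1 (1.59 ± 0.32, adjusted p = 0.0401) and the proline-rich wall protein PRP3 (1.49 ± 0.30, adjusted p = 0.0412).

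RHD6 and RSL4, the bHLH factors that drive root hair formation, overlapped between the lines. RHD6 had 2.25, 1.56 and 1.25 CPM in DPB2oe12.1.5 libraries and 0.99, 1.53 and 1.18 CPM in DPB2oe1.11.5 libraries, against 1.05, 1.08 and 1.70 CPM in Col-0. RSL4 had 0, 0.75 and 0.39 CPM in DPB2oe12.1.5 libraries and 0.35, 0.38 and 0.31 CPM in DPB2oe1.11.5 libraries, against 0.69, 0.39 and 0.85 CPM in Col-0. The summed level of the root hair list was 20.8, 21.3 and 43.1 CPM in DPB2oe12.1.5 libraries and 9.8, 11.6 and 13.6 CPM in DPB2oe1.11.5 libraries, against 23.8, 26.9 and 28.9 CPM in Col-0. Replicate 3 of DPB2oe12.1.5, the library alone on the second component, was the highest. Without it the median was 0.81, and 5 of the 7 genes had an unadjusted p under 0.05. Without replicate 2 of DPB2oe1.11.5, 2 of the 7 were called higher, where 3.19% of all loci were.

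The suberin and Casparian strip, peroxidase and xyloglucan enzyme lists that follow were drawn up after values were seen. The endodermis seals the root with a lignin band, the Casparian strip, and with suberin, a polyester of fatty acids. CASP1, a membrane protein that places the Casparian strip, had 12.1, 11.3 and 22.7 CPM in DPB2oe12.1.5 libraries and 7.81, 7.38 and 8.23 CPM in DPB2oe1.11.5 libraries, against 13.6, 13.9 and 15.1 CPM in Col-0. CASP1 missed the threshold (0.97 ± 0.23, adjusted p = 0.103), and was called higher with the clock score (1.12 ± 0.23, adjusted p = 0.0412). It also belongs to an earlier list of 5 root tissue genes, of which 4 lay above 0 (median 0.48, from -2.85 to 0.97). Of that list edgeR called 0, and CASP1 alone with the clock score, while DESeq2 called 1 higher. The iron transporter IRT1 of that list overlapped between the lines (0.96 ± 0.53, adjusted p = 0.367). Of 23 tested suberin and Casparian strip genes 21 lay above 0 (median 0.70) and 14 had an unadjusted p under 0.05. Of these genes edgeR called 0, and 6 higher with the clock score, and DESeq2 called 9 higher. Of all loci 9.34% had such an unadjusted p with higher values, 0.522% were called higher with the clock score and 2.11% by DESeq2. GPAT5, an acyltransferase of suberin synthesis, had 6.51, 5.64 and 7.57 CPM in DPB2oe12.1.5 libraries and 3.28, 3.02 and 3.22 CPM in DPB2oe1.11.5 libraries, against 5.22, 4.60 and 5.37 CPM in Col-0, with the lines apart but not called (1.05 ± 0.19, adjusted p = 0.0607). ABCG6, a transporter needed for suberin, had 13.0, 11.4 and 15.0 CPM in DPB2oe12.1.5 libraries and 3.98, 7.24 and 3.83 CPM in DPB2oe1.11.5 libraries, against 9.06, 6.16 and 6.32 CPM in Col-0. It was not called (1.38 ± 0.25, adjusted p = 0.0607), and was called higher with the clock score (1.17 ± 0.22, adjusted p = 0.0298). CYP86A1, a fatty acid hydroxylase of root suberin, was likewise called higher with the clock score (1.202 ± 0.29, adjusted p = 0.104 without it; 1.45 ± 0.27, adjusted p = 0.0419 with it).

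Class III peroxidases oxidise phenolics in the cell wall. Of 58 tested peroxidase genes 49 lay above 0 (median 0.64) and AT1G30870 was called, while 31 had an unadjusted p under 0.05 with higher values and 1 with lower values. AT2G38390 had 22.7, 21.0 and 38.1 CPM in DPB2oe12.1.5 libraries and 12.04, 8.96 and 10.5 CPM in DPB2oe1.11.5 libraries, against 22.04, 31.4 and 31.7 CPM in Col-0. AT2G38390 missed the threshold (1.38 ± 0.26, adjusted p = 0.0634). DESeq2 called 17 peroxidase genes higher. With the clock score 8 were called, all higher, AT2G38390 among them (1.62 ± 0.23, adjusted p = 0.00876). XTH enzymes cut and rejoin xyloglucan in growing walls. Of 24 tested XTH genes 19 lay above 0 (median 0.83) and edgeR called 0, and 3 higher with the clock score, while DESeq2 called 4 higher. Among all loci 9.34% had an unadjusted p under 0.05 with higher values. The clock score fit called 0.522% of all loci higher, and DESeq2 called 2.11%. XTH14 had 8.52, 5.71 and 12.6 CPM in DPB2oe12.1.5 libraries and 3.33, 3.26 and 2.47 CPM in DPB2oe1.11.5 libraries, against 7.43, 10.6 and 10.4 CPM in Col-0. It was not called (1.55 ± 0.27, adjusted p = 0.06), and was called higher with the clock score (1.69 ± 0.27, adjusted p = 0.0158). Summed over the XTH list, levels were 1514, 1363 and 1479 CPM in DPB2oe12.1.5 libraries and 929, 1165 and 882 CPM in DPB2oe1.11.5 libraries. In Col-0 the XTH sum was 1029, 893 and 804 CPM, within or below the range of DPB2oe1.11.5, unlike XTH14. The summed level of the peroxidases was 2321, 2220 and 3274 CPM in DPB2oe12.1.5 libraries and 2629, 2156 and 2657 CPM in DPB2oe1.11.5 libraries, so that the sum, set by the abundant members, overlapped.

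**Figure D4:**
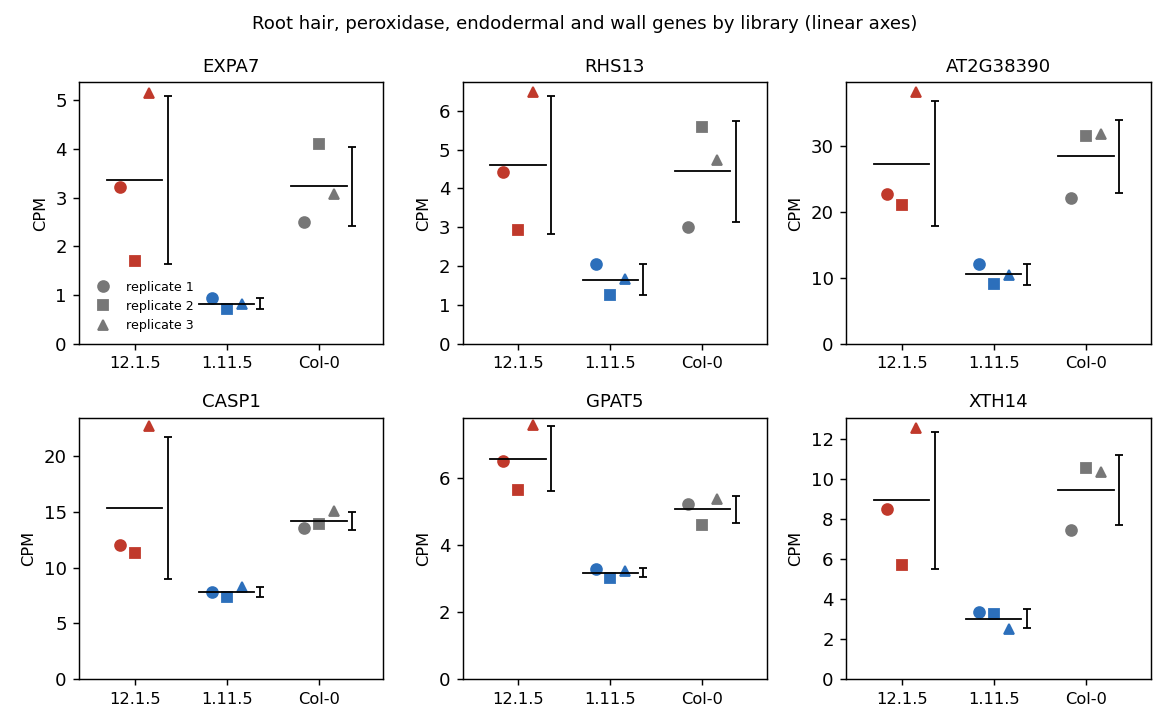
CPM of the root hair genes EXPA7 and RHS13, the peroxidase gene AT2G38390, the endodermal genes CASP1 and GPAT5, and XTH14 by library on linear axes; lines are means and error bars SD of 3 libraries. In all 6 genes every DPB2oe12.1.5 library lies above every DPB2oe1.11.5 library, and replicate 3 is the highest of DPB2oe12.1.5.

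Transcripts of the organelle genomes took a larger share of reads in each DPB2oe12.1.5 library than in any DPB2oe1.11.5 library. Chloroplast loci took 1.51%, 0.811% and 1.18% of counted reads in DPB2oe12.1.5 libraries and 0.705%, 0.233% and 0.649% in DPB2oe1.11.5 libraries, against 0.225%, 0.791% and 0.65% in Col-0. The difference of 0.64 percentage points gave p = 0.1 in the exact two-sided permutation test, the smallest it can give. Mitochondrial loci took 0.0229%, 0.0135% and 0.018% in DPB2oe12.1.5 libraries and 0.0103%, 0.00297% and 0.00872% in DPB2oe1.11.5 libraries, against 0.00246%, 0.00994% and 0.0107% in Col-0 (exact permutation test, p = 0.1). These groups of loci, too, were set up after values were seen. Of 133 chloroplast and 146 mitochondrial loci, 80 and 32 passed the filter on low counts. A locus can pass that filter through the line where it is high, so the directions below are in part set by it. Of the 80 chloroplast loci 78 lay above 0 (median 1.46), and all 32 mitochondrial loci did (median 1.52). Of these loci edgeR called 0, and 6 chloroplast and 10 mitochondrial loci higher with the clock score. DESeq2 called 22 chloroplast and 4 mitochondrial loci higher. Of all loci DESeq2 called 2.11% higher, and the clock score fit called 0.522%. ATCG00500, the chloroplast gene of a subunit of acetyl-CoA carboxylase, had 24.2, 10.13 and 17.5 CPM in DPB2oe12.1.5 libraries and 4.33, 2.01 and 5.63 CPM in DPB2oe1.11.5 libraries, against 2.90, 3.13 and 2.66 CPM in Col-0. Its log2 fold change was 2.12 ± 0.37, adjusted p = 0.06, and with the clock score 2.55 ± 0.37, adjusted p = 0.0104.

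Genes of cell division had lower values in DPB2oe12.1.5 than in replicates 1 and 3 of DPB2oe1.11.5, with 0 called by edgeR. The summed level of the G2/M list was 282, 279 and 238 CPM in DPB2oe12.1.5 libraries. It was 400, 275 and 403 CPM in DPB2oe1.11.5 libraries, against 231, 262 and 259 CPM in Col-0. In that sum replicate 2 of DPB2oe1.11.5 fell within the range of DPB2oe12.1.5. Of 21 genes of the G2/M phase 19 lay below 0 (median -0.42), and 10 had an unadjusted p under 0.05. With the clock score 17 lay below 0 (median -0.36), 7 had an unadjusted p under 0.05 and 0 were called. DESeq2 called 1 of them lower, CDC20.1. Without the score 8.6% of all loci had an unadjusted p under 0.05 with lower values, and DESeq2 called 1.25% lower. CDC20.1, an activator of the anaphase-promoting complex, had 23.9, 15.97 and 13.3 CPM in DPB2oe12.1.5 libraries and 42.8, 20.9 and 41.2 CPM in DPB2oe1.11.5 libraries, against 16.9, 21.0 and 25.3 CPM in Col-0. CDC20.1 missed the threshold (-0.98 ± 0.27, adjusted p = 0.125) in edgeR, and replicate 2 of DPB2oe1.11.5, the library of high clock score, fell within the range of DPB2oe12.1.5. AUR1, an Aurora kinase of mitosis, had 15.68, 14.3 and 13.5 CPM in DPB2oe12.1.5 libraries and 26.7, 16.7 and 22.8 CPM in DPB2oe1.11.5 libraries, against 13.1, 14.4 and 13.4 CPM in Col-0. It was not called (-0.61 ± 0.18, adjusted p = 0.138), and the lines did not overlap. Of 22 DNA replication genes 16 lay below 0 (median -0.30) and 0 were called, MCM2 (-0.59 ± 0.19, adjusted p = 0.155) and MCM6 (-0.60 ± 0.21, adjusted p = 0.173) of the replicative helicase having the lowest p. With the clock score 17 replication genes lay below 0 (median -0.30), 2 had an unadjusted p under 0.05 and 0 were called. DESeq2 called 0. The summed level of the replication list was 297, 308 and 234 CPM in DPB2oe12.1.5 libraries. It was 352, 307 and 347 CPM in DPB2oe1.11.5 libraries, against 251, 282 and 258 CPM in Col-0, so that replicate 2 again overlapped. Without replicate 2 of DPB2oe1.11.5, 7 G2/M genes (33.3%) and 1 replication gene (4.55%) were called lower, where 2.34% of all loci were. Without the 4 libraries of highest LHY, an alternative added after seeing the data in which 3.13% of loci were called higher and 1.87% lower, DPB2oe12.1.5 is left with replicate 3 alone, the library that stands apart on the second component. In that fit 6 G2/M genes and 5 replication genes were called lower.

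Of 30 tested genes of the DNA damage response 16 lay above 0 (median 0.06) and edgeR called 0. In the covariate fit 15 lay above 0 (median 0.002) and 0 were called. DESeq2 called 1 higher, SMR7, where it called 2.11% of all loci higher. SMR7, a CDK inhibitor induced by DNA damage, had 11.7, 9.79 and 10.9 CPM in DPB2oe12.1.5 libraries and 3.98, 6.37 and 5.94 CPM in DPB2oe1.11.5 libraries, against 1.52, 1.17 and 0.58 CPM in Col-0. Its log2 fold change was 0.99 ± 0.26, adjusted p = 0.113, with an unadjusted interval of 0.42 to 1.56. The groups did not overlap, with DPB2oe12.1.5 the highest and Col-0 the lowest.

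Photosystem and antenna genes lay above 0 in 30 of 37 cases (median 0.20) and 0 were called, with PETE2, a plastocyanin (0.52 ± 0.17, adjusted p = 0.155), and PSBO2, of the oxygen-evolving complex (0.55 ± 0.19, adjusted p = 0.166), having the lowest p. In the covariate fit 36 of the 37 lay above 0 (median 0.33) and 0 were called, and DESeq2 called 0. Without replicate 3 of DPB2oe12.1.5 the photosystem median was -0.04. Of 19 tested heat shock genes 18 lay above 0 (median 0.35) and 0 were called. The covariate fit put 11 above 0 and 8 below (median 0.26), with 0 called, as with DESeq2. FLC, a repressor of flowering (0.61 ± 0.25, adjusted p = 0.239), and its relative MAF3 (-0.56 ± 0.16, adjusted p = 0.125) were not called, nor were they with the clock score (0.46 ± 0.25, adjusted p = 0.384 for FLC; -0.55 ± 0.19, adjusted p = 0.17 for MAF3). MIOX4, a myo-inositol oxygenase, had 13.9, 19.6 and 21.4 CPM in DPB2oe12.1.5 libraries and 4.87, 5.51 and 4.82 CPM in DPB2oe1.11.5 libraries, against 1.01, 0.10 and 0.21 CPM in Col-0. MIOX4 missed the threshold (1.85 ± 0.35, adjusted p = 0.0703), and the groups did not overlap. The clock score as a covariate gave 1.71 ± 0.38, adjusted p = 0.0577. MIOX1 lay the other way and was not called (-1.17 ± 0.41, adjusted p = 0.175; with the clock score -0.72 ± 0.30, adjusted p = 0.257). CCH, a copper chaperone, had 273, 211 and 272 CPM in DPB2oe12.1.5 libraries and 156, 182 and 157 CPM in DPB2oe1.11.5 libraries, against 481, 492 and 501 CPM in Col-0. It was not called (0.61 ± 0.14, adjusted p = 0.0914), and both lines lay below Col-0; with the clock score it stood at 0.56 ± 0.14, adjusted p = 0.0771. DESeq2 called MIOX4 and CCH higher.

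Jasmonate, cold and starvation outputs differed among libraries of one line, although the lines did not overlap in LOX2, COR15B or SEN1. LOX2, a lipoxygenase of jasmonate synthesis, had 271, 310 and 357 CPM in DPB2oe12.1.5 libraries and 887, 534 and 873 CPM in DPB2oe1.11.5 libraries, against 391, 807 and 747 CPM in Col-0. LOX2 missed the threshold (-1.29 ± 0.35, adjusted p = 0.121). The clock score as a covariate gave -0.85 ± 0.25, adjusted p = 0.145, and DESeq2 called it lower. COR15B, a cold-induced chloroplast protein, had 2.09, 2.31 and 3.20 CPM in DPB2oe12.1.5 libraries and 40.5, 6.09 and 45.9 CPM in DPB2oe1.11.5 libraries, against 6.60, 87.9 and 74.7 CPM in Col-0. Replicate 2 of DPB2oe1.11.5 was again far below the rest of its line, and the gene was not called (-3.60 ± 1.43, adjusted p = 0.237; with the clock score -1.21 ± 0.63, adjusted p = 0.389). SEN1, which marks darkness and carbon starvation, had 95.6, 99.0 and 305 CPM in DPB2oe12.1.5 libraries and 58.7, 61.2 and 84.4 CPM in DPB2oe1.11.5 libraries, against 148, 79.2 and 69.7 CPM in Col-0. Replicate 3 of DPB2oe12.1.5 was the highest library, and the gene was not called (1.29 ± 0.70, adjusted p = 0.358; with the clock score 1.49 ± 0.82, adjusted p = 0.418).

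**Figure D5:**
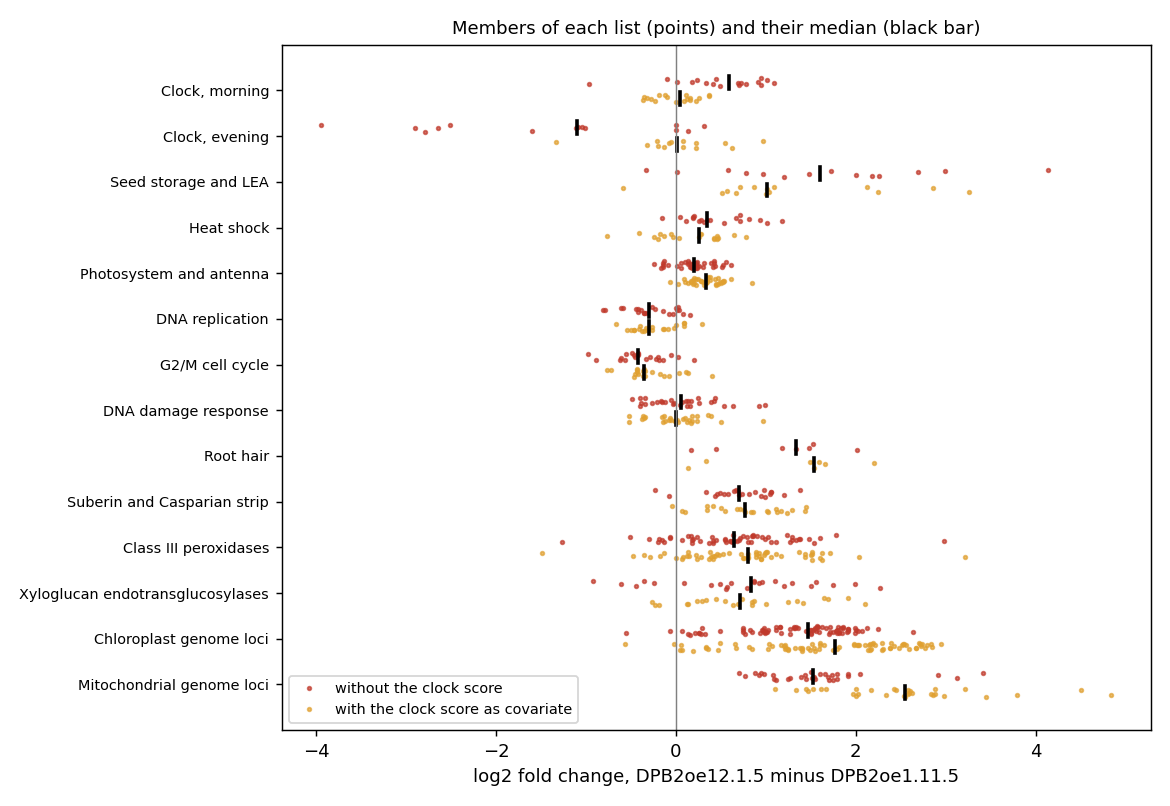
Log2 fold change (DPB2oe12.1.5 minus DPB2oe1.11.5) of every tested member of 14 lists, without (red) and with (orange) the clock score as a covariate; black bars are medians. The clock lists have medians of 0.59 and -1.10 without the score and 0.05 and 0.01 with it, while those of the root hair list are 1.34 and 1.53.

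Over all 33602 loci, 10 had at most 3 counts in one line and at least 40 in the other, with bounds chosen after values were seen; 4 were present in DPB2oe12.1.5 and 6 in DPB2oe1.11.5. PHE1, an imprinted MADS gene of the endosperm, had 0, 0 and 1 counts in DPB2oe12.1.5 libraries and 45, 3 and 19 counts in DPB2oe1.11.5 libraries, against 28 in Col-0. AGL38, its near neighbour and relative, had 1, 0 and 0 counts in DPB2oe12.1.5 libraries and 21, 4 and 18 counts in DPB2oe1.11.5 libraries, against 45 in Col-0; counts of such close relatives may be split between them. AT5G18180, a GAR1-type subunit of H/ACA snoRNA complexes, had 1, 2 and 0 counts in DPB2oe12.1.5 libraries and 16, 14 and 15 counts in DPB2oe1.11.5 libraries, against 20 in Col-0 (-3.28 ± 0.64, adjusted p = 0.0716). LCR67, a plant defensin, had 69, 109 and 1 counts in DPB2oe12.1.5 libraries and 0, 2 and 0 counts in DPB2oe1.11.5 libraries, against 14 in Col-0. PDF1.2, a defensin induced by jasmonate, had 1, 3 and 37 counts in DPB2oe12.1.5 libraries and 0 in each DPB2oe1.11.5 library, against 35 in Col-0. Different replicates of DPB2oe12.1.5 thus carried each defensin, and Col-0 held both.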

How the data were processed

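Stranded single-end libraries of selected mRNA were read on an Ion Torrent Proton, per the labels' protocols. The authors deposited unscaled read counts for 33602 loci, after removal of reads with several hits per the file headers; the genome was TAIR10 per the submitters' processing notes, and no aligner or counter is given in the sources used here. RefSeq TAIR10.1 supplied names, coordinates and sequence and matched 32835 loci (97.7%). Counted reads in Col-0 ran from 10902547 to 29456111.

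edgeR 4.0.16 (R 4.3.3) fitted 1 mean per genotype over the 12 libraries by robust quasi-likelihood, with TMM scaling, to the 19924 loci kept by filterByExpr. P-values were adjusted by Benjamini-Hochberg over these loci and called under 0.05; the common BCV was 0.226. Single library measures had exact permutation tests. Named genes were the polymerase and clock genes, the called loci of at least 2 CPM that did not overlap, and from each list up to 4 called members or the 2 of lowest p; others were chosen after their values were seen. Members and lists were chosen with earlier results of these data known. Alternatives comprised 17 settings, DESeq2 1.42.0 among them. The fit was tested on simulated data.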

Additional observations from a re-analysis of the deposited data

Results flagged for a closer look

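The effects of the lines against Col-0 differed at 6 loci by the direct test between the lines. Each line's own log2 fold change is given beside it, and both use the same 3 Col-0 libraries. TGG2 stood at -1.71 ± 0.14 in DPB2oe12.1.5 and -0.32 ± 0.13 in DPB2oe1.11.5, a difference of -1.39. AT1G30870 stood at 0.23 ± 0.20 in DPB2oe12.1.5 and -1.37 ± 0.21 in DPB2oe1.11.5, a difference of 1.60. CYP78A8 stood at 0.24 ± 0.26 in DPB2oe12.1.5 and -2.16 ± 0.28 in DPB2oe1.11.5, a difference of 2.40. EM6 stood at 2.57 ± 0.38 in DPB2oe12.1.5 and -0.42 ± 0.44 in DPB2oe1.11.5, a difference of 2.996. For the pseudogenes AT2G05040 (difference -5.03) and AT5G33251 (difference -6.73) no fold against Col-0 is given, since Col-0 held 13 and 3 counts.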

How the results depend on the processing

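The number of called loci stayed at 6 under RLE and upper-quartile scaling, a stricter filter, no robust estimation and without organelle loci. DESeq2 gave 670, no filter on low counts 115, the 6 libraries of the lines alone 1, and the clock score as a covariate 130. Leaving out single libraries gave 3 to 1119: 3 without DPB2oe1.11.5 replicate 1 or 3, 1119 without DPB2oe1.11.5 replicate 2, and 7, 20 and 11 without DPB2oe12.1.5 replicates 1, 2 and 3. Leaving out the 4 libraries of highest LHY, added after seeing the data, gave 1042 and kept only replicate 3 of DPB2oe12.1.5, assumed to vary like the other groups. Libraries of like replicate number had deviation correlations of -0.132, 0.366 and 0.358 for replicates 1, 2 and 3. Those of unlike number ran from -0.435 to 0.313. The labels do not say what the replicate numbers share, so a replicate effect cannot be told apart from other differences. On the 6 libraries of the lines, the fit with the replicate block called 24 loci, against 1 without it. Of the 24, 3 were among the 6 loci of the main fit.

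The called genes kept their direction in all 17 settings. AT2G05040 was called in 17, TGG2 and AT5G33251 in 16, CYP78A8 and AT1G30870 in 13 and EM6 in 11. The log2 fold change of DPB2 turned negative with upper-quartile scaling (-0.002264), no filter (-0.007585) and the highest LHY libraries left out (-0.007958), and ran from -0.04026 to 0.03832 without single libraries, with -0.004935 without DPB2oe12.1.5 replicate 3. The clock score as a covariate turned LHY (-0.236), TOC1 (0.07786) and PIF4 (0.003894). The difference in the share of the 10 most abundant loci, 0.606 percentage points, ran from -0.584 to 1.42 without single libraries. The causes were not tested.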

Other observations

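Among genes outside the lists, chosen after their values were seen, U3B and U3D encode the U3 small nucleolar RNA, which acts in ribosomal RNA processing. U3B had 3.62, 2.85 and 4.52 CPM in DPB2oe12.1.5 libraries and 1.29, 1.10 and 0.68 CPM in DPB2oe1.11.5 libraries, against 4.28, 9.001 and 9.67 CPM in Col-0. The lines did not overlap, and most Col-0 libraries lay above both; U3B was not called (edgeR, 1.81 ± 0.35, adjusted p = 0.0708) and was called higher with the clock score (2.03 ± 0.35, adjusted p = 0.0226). U3D had 10.5, 7.41 and 11.9 CPM in DPB2oe12.1.5 libraries and 2.59, 4.07 and 3.15 CPM in DPB2oe1.11.5 libraries, against 14.2, 27.1 and 32.8 CPM in Col-0, and was called higher with the clock score (1.60 ± 0.36, adjusted p = 0.0982 without it; 1.85 ± 0.34, adjusted p = 0.0355 with it). These copies are near-identical, so reads may be split between them or removed as multiple hits. RHS13, a root hair gene, was called higher with the clock score (1.47 ± 0.34, adjusted p = 0.0982 without it; 1.86 ± 0.30, adjusted p = 0.0161 with it). DESeq2 called U3B, U3D and RHS13 higher without the score.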
